A study of Oncorhynchus mykiss with 24 samples.

Results

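ambp and antiprot1, the genes of a pair of plasma protease inhibitors, were followed in the liver of rainbow trout fed 6 experimental diets for 12 days. They were found by their gene symbols in the annotation of the array, where they fill 6 of 8736 spots, or 3 of 4368 pairs of adjacent spots, and are 2 of the 32 symbols named there. The 2 genes were chosen on values of these same arrays, namely log2 ratios below 0 against the vehicle pool in several diets, so every value against that pool is given below as a description. Calls against the pool in the main fit are printed beside the share of all features called, and support nothing. For the alternatives, the number of all features called is given for some settings and as a range. Two-colour arrays read 12 treated RNA samples, 2 for each of 6 diets, and each sample was hybridised against 1 pool of vehicle liver RNA on 2 arrays with the dyes swapped, which makes 24 arrays.

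All fish were juvenile Mt. Shasta rainbow trout (Oncorhynchus mykiss) aged 12 to 18 months, and all ate a casein-based test diet. The labels give the compounds as abbreviations, read here in their usual sense. One diet held 5 ppm of E2, the hormone estradiol, and one 500 ppm of BNF, which is β-naphthoflavone. Indole-3-carbinol, I3C, was fed at 500 and at 1500 ppm. Its dimer 3,3′-diindolylmethane, DIM, was fed at the same pair of doses. The pool came from 12 fish fed 0.15% dimethyl sulfoxide, the vehicle. Each treatment had 2 tanks of 6 fish, sampled on day 13. How fish or tanks were combined into a treated sample is not in the labels, so the p-values measure no more than the scatter of these samples, and that scatter may be technical. E2 is the main vertebrate estrogen, and BNF is a ligand of the aryl hydrocarbon receptor. I3C occurs in cruciferous vegetables, and DIM, 2 indole units joined by a methylene bridge, forms from it in acid.

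AMBP is known from mammals as a precursor protein of hepatocytes that is cut into a pair of unlike plasma proteins. One is alpha-1-microglobulin, a lipocalin that binds heme and scavenges radicals. The other is bikunin, a Kunitz-type inhibitor of serine proteases that circulates as the light chain of the inter-alpha-inhibitor family. Antiproteinases of plasma, of which alpha-1-antitrypsin is the best known in mammals, are likewise made by the liver and block proteases such as neutrophil elastase. The symbol antiprot1 names a trout gene of antiproteinase type.

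Both ambp pairs, spots 10010713 and 10010714 and spots 11010413 and 11010414, carry 1 and the same sequence accession in the annotation. They were taken as repeat prints and not as separate evidence on the gene. antiprot1 has 1 pair, spots 4040309 and 4040310. The gene ID that the annotation gives for antiprot1 was found in the RefSeq gene table of assembly USDA_OmykA_1.1. The ID it gives for ambp was not, and the symbol ambp belongs to another ID there, so ambp is named from the array's annotation.

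All values are log2 ratios of a diet over the vehicle pool, with each array centred on its median, both spots of a pair averaged and both arrays of a sample averaged. They compare the same spot between diets and say nothing of how abundant a transcript was. The direction is an assumption: the labels name the dyes but not the numerator, and Cy3 over Cy5, channel 1 over channel 2, was assumed. It was not tested, and likely direction below means this assumed direction. If Cy5 was the numerator, every sign below turns. The log base is not stated and was taken as 2. Both arrays of E2 replicate 1, and both of replicate 1 of DIM at 500 ppm, correlated negatively with arrays labelled with the same dye. Their median correlation over all spots was -0.70 to -0.54, and that of the remaining 20 arrays was 0.20 to 0.77. No label settles the direction of those 4 arrays. They were turned for the main values. Values with signs as deposited are given for the levels, orders and differences of the 2 genes and for their highest and lowest correlations. Means of other features, and correlations of cell type markers outside that set, are given only with the arrays turned. Agreement between adjacent spots was weakest in BNF replicate 1, with r of 0.41 and 0.57 on its arrays and 0.81 to 0.94 elsewhere.

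In the likely direction, and with the 4 arrays turned, ambp was lower than in the vehicle pool in all samples fed E2, I3C or DIM, and close to the pool in BNF. DIM at 500 ppm then gave the lowest values. As deposited, replicate 1 stood above the pool in DIM at 500 ppm, at 1.29 and 1.33 on the 2 pairs, and in E2, at 0.21 and 0.34. On spots 10010713 and 10010714 the samples fed DIM at 500 ppm stood at -1.29 and -0.93, with a mean of -1.11 ± 0.15 (log2 ratio ± SE, n = 2), which is 2.15-fold lower. At 1500 ppm of DIM they stood at -0.78 and -0.56, with a mean of -0.67 ± 0.15, or 1.59-fold lower. After turning, the samples of the lower dose lay below both samples of the higher dose. Each SE here and below is from limma, with a spread shared by all diets, and is not the SE of the 2 samples alone.

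With I3C at 1500 ppm, ambp on the same spots was at -0.67 and -0.91, with a mean of -0.79 ± 0.15. With I3C at 500 ppm it was at -0.78 and -0.43, with a mean of -0.61 ± 0.15. These 2 doses overlapped, and each also overlapped DIM at 1500 ppm. With E2 the samples stood at -0.21 and -0.30 and the mean at -0.26 ± 0.15, above all samples fed an indole and below both fed BNF. With BNF they stood at -0.02 and 0.23, on either side of the pool, with a mean of 0.11 ± 0.15.

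The second ambp pair, spots 11010413 and 11010414, gave the same order of the 6 diets. Its means were -1.09 ± 0.15 for DIM at 500 ppm, -0.73 for I3C at 1500 ppm, -0.58 for DIM at 1500 ppm, -0.55 for I3C at 500 ppm, -0.29 for E2 and 0.17 for BNF (n = 2 each). Here both BNF samples were above the pool, at 0.11 and 0.23, and DIM at 500 ppm, at -1.33 and -0.85, overlapped I3C at 1500 ppm, at -0.60 and -0.87. Over the 12 samples the repeat prints correlated at r = 0.98, and they differed by a median of 0.07 and by at most 0.13, in BNF replicate 1. Within an array the 4 ambp spots spanned a median of 0.24 and at most 0.87, on the array of I3C 1500 ppm replicate 2 with treated RNA in Cy5. The gap between the 2 samples of a diet on the first pair ran from 0.09 in E2 to 0.36 in DIM at 500 ppm.

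**Figure D1:**
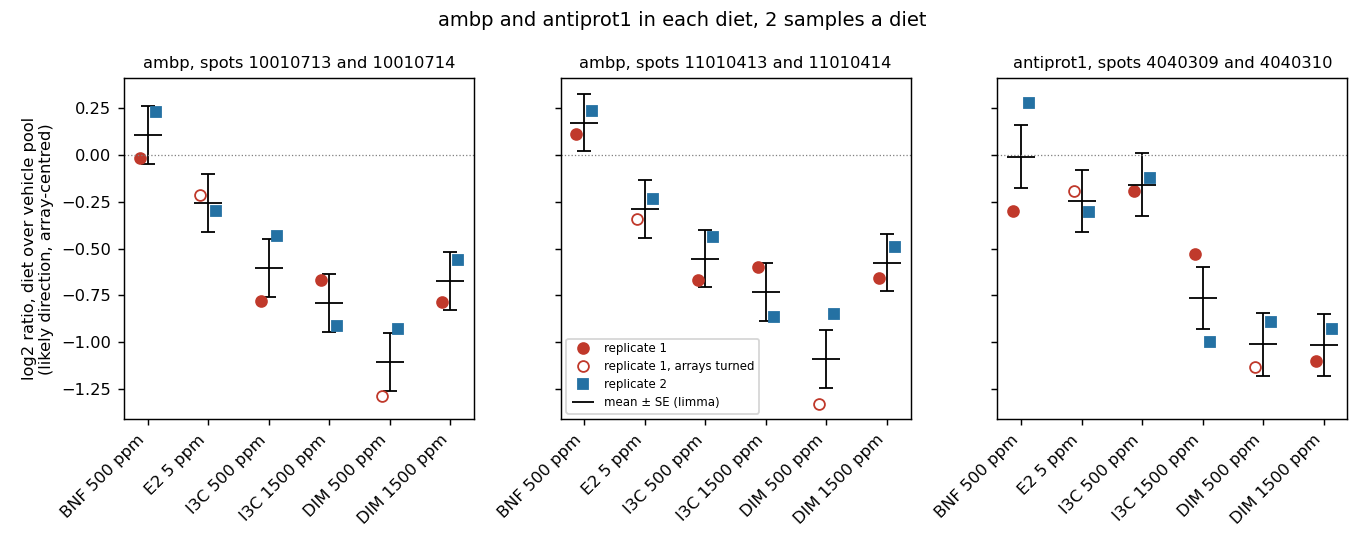
Log2 ratio of diet over vehicle pool (likely direction, centred arrays) for both ambp pairs and the antiprot1 pair in 6 diets. Points are the 2 samples of a diet, open circles are samples whose arrays were turned, and bars are the mean ± SE from limma. ambp is lowest in DIM at 500 ppm, at -1.11 and -1.09, and antiprot1 is at -1.02 to -0.76 in both DIM diets and I3C at 1500 ppm and at -0.25 to -0.01 in the others. Taken as deposited, the DIM 500 ppm means are 0.18, 0.24 and 0.12.

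With the 4 arrays turned, antiprot1 was lowest with DIM, at both doses, and was near the pool with BNF and the lower dose of I3C. As deposited, replicate 1 of DIM at 500 ppm stood at 1.13 and replicate 1 of E2 at 0.19. With DIM at 1500 ppm its samples stood at -1.10 and -0.93, with a mean of -1.02 ± 0.17 (n = 2), or 2.02-fold lower in the likely direction. With DIM at 500 ppm they stood at -1.13 and -0.89, with a mean of -1.01 ± 0.17. The range of the higher dose of DIM lay inside that of the lower dose.

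With I3C at 1500 ppm, antiprot1 was at -0.53 and -1.0, with a mean of -0.76 ± 0.17, and replicate 2 lay within the range of DIM. With I3C at 500 ppm it was at -0.19 and -0.12, with a mean of -0.16 ± 0.17. The samples of the 2 I3C doses did not overlap. E2 gave -0.19 and -0.30, with a mean of -0.25 ± 0.17, just below I3C at 500 ppm. Their nearest samples, replicate 1 of each, were almost equal at -0.1924 and -0.1914, and that E2 sample was a turned one. BNF gave -0.30 and 0.28, with a mean of -0.01 ± 0.17, and its range held all samples of I3C at 500 ppm.

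The order from lowest to highest differed between the genes, with the 4 arrays turned. For ambp it ran DIM 500, I3C 1500, DIM 1500, I3C 500, E2 and BNF. For antiprot1 it ran DIM 1500, DIM 500, I3C 1500, E2, I3C 500 and BNF. In both, BNF was highest and E2, at a dose in ppm far below the others, lay above I3C at 1500 ppm and both doses of DIM. With both turned samples left out, the order stayed the same for each pair. With signs as deposited, DIM 500 became the highest diet for each pair, at 0.18 and 0.24 for ambp and 0.12 for antiprot1, and E2 moved above I3C 500 for antiprot1. Of the neighbours in the turned orders, I3C 1500, DIM 1500 and I3C 500 overlapped in turn for ambp, as did DIM 500 and I3C 1500 on its second pair. For antiprot1, DIM 1500, DIM 500 and I3C 1500 overlapped in turn, and so did I3C 500 and BNF. Its E2 and I3C 500 samples nearly met, at -0.1924 and -0.1914, so nothing is read from the order of that pair.

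Set against all 4368 features, the 3 pairs were called by limma (Benjamini-Hochberg adjusted p under 0.05) in 3 of 3 cases for I3C at 1500 ppm, where 9.07% of features were called. The count was 3 of 3 for DIM at 500 ppm, with 10.6% of features called, and 3 of 3 for DIM at 1500 ppm, with 9.87%. It was 0 of 3 for E2 (5.98%), for I3C at 500 ppm (0.755%) and for BNF (0.0458%). The genes were chosen with these comparisons known, so nothing is read from the counts. The median of all features lay between 0.01 and 0.07 in the 6 diets. That of the 3 pairs, 2 of them repeat prints of ambp, was -1.09 in DIM at 500 ppm and -0.76 in I3C at 1500 ppm. It was -0.67 in DIM at 1500 ppm, -0.55 in I3C at 500 ppm, -0.26 in E2 and 0.11 in BNF. In I3C at 500 ppm antiprot1 alone stood at -0.16. The 2 genes were chosen for values below 0, so nothing is read from this contrast of medians either.

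These calls rested on few samples. With signs as deposited, none of the 3 pairs was called in any diet. The means of E2 were then -0.04 and 0.05 for ambp and -0.06 for antiprot1. Of all features, 4 were then called in I3C at 1500 ppm, against 396 in the main fit, and 0 in DIM at 1500 ppm, against 431. The means of these last 2 diets did not change with the signs, while the SE of antiprot1 rose from 0.17 to 0.37. Calls of all features moved with other settings as well. In DIM at 1500 ppm they numbered 292 uncentred, 319 with the diet alone, 246 with array weights and 471 with print blocks centred. In I3C at 1500 ppm they numbered 248 with arrays scaled alike and 535 with array weights. The counts that follow are therefore not read as a trait of these pairs. Of 13 alternatives, the second ambp pair in DIM at 1500 ppm was called in 5 and the first in 8, while antiprot1 there was called in 12. The second pair was not called without either replicate, and the first not without replicate 1. In I3C at 1500 ppm the ambp pairs were called in 11 and 10 and antiprot1 in 10, and no pair was called without replicate 2, which held the lower values. In DIM at 500 ppm the ambp pairs were each called in 12 and antiprot1 in 11, with its call lost without replicate 1.

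Centring mattered most for E2, I3C at 500 ppm and BNF. It added 0.37, 0.47 and 0.35 to the mean of those diets, against 0.13 for I3C at 1500 ppm, 0.04 for DIM at 500 ppm and 0.01 for DIM at 1500 ppm. Uncentred, I3C at 500 ppm stood at -1.08 and -1.02 for the ambp pairs, both then called. Each was called in 3 of 13 alternatives. Of all 4368 features, 818 were called in I3C at 500 ppm when uncentred, against 33 in the main fit. The count was 250 with the diet alone, 72 with all 24 arrays and 32 with print blocks centred. antiprot1 in that diet stood at -0.63 uncentred and was called in 0 alternatives. Uncentred, E2 stood at -0.62 and -0.66 for ambp and -0.61 for antiprot1, and BNF at -0.25 and -0.18 for ambp and -0.36 for antiprot1. Uncentred ambp values in I3C were therefore lower at 500 ppm than at 1500 ppm, the reverse of the centred order.

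Readings of both genes differed by dye, and the counts that follow are with the 4 arrays turned. As deposited, those arrays take the opposite sign, so the Cy3 array of ambp lay below the Cy5 array in both turned samples. With treated RNA in Cy5, all 12 arrays were below 0 for each of the 3 pairs, with medians of -0.99 and -1.11 for ambp and -0.84 for antiprot1. With treated RNA in Cy3, 7 and 5 of 12 arrays were below 0 for the ambp pairs, with medians of -0.18 and 0.14, and 9 of 12 for antiprot1, with a median of -0.28. The Cy3 array lay above the Cy5 array of its sample in 12 of 12 samples for each ambp pair and in 10 of 12 for antiprot1. Within DIM at 500 ppm all 4 arrays of each pair were below 0. In DIM at 1500 ppm and in I3C at 1500 ppm all 4 were for antiprot1 and the first ambp pair, and 3 of 4 for the second. In I3C at 500 ppm it was 3 of 4 for each ambp pair and 2 of 4 for antiprot1. In E2 it was 2 of 4 for each ambp pair and 4 of 4 for antiprot1. BNF had 2 of 4 for each ambp pair and 3 of 4 for antiprot1.

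The dye share of a sample, which is the mean of its swapped arrays before the swap is turned, was 0.07 to 0.70 and 0.26 to 1.18 for the ambp pairs in the 10 samples left as deposited. In the 2 turned samples it was -0.61 and -0.57 for the first pair and -0.68 and -0.38 for the second as deposited, opposite to the rest. For antiprot1 it was -0.0015 to 0.74 in the 10 samples, and -0.03 and 0.18 as deposited in E2 replicate 1 and DIM 500 ppm replicate 1. For ambp these 2 samples lay outside the range of the other 10, and for antiprot1 they lay within it or 0.03 below 0. Over all features, the dye share as deposited correlated with that of the other samples at a median r of -0.80 in E2 replicate 1 and -0.74 in DIM 500 ppm replicate 1. In the 10 samples left as deposited this median was 0.55 to 0.89. The part of dye in the values was not tested beyond the swap.

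**Figure D2:**
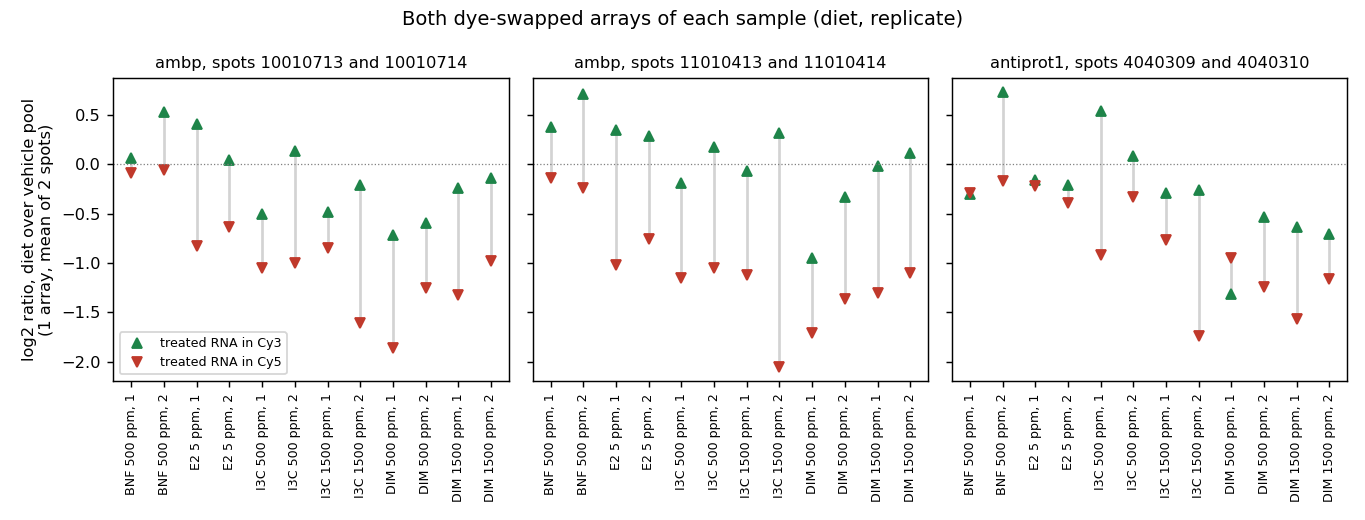
Log2 ratio on each of the 24 arrays (mean of 2 spots, likely direction, after turning), with the swapped arrays of a sample joined by a grey line. Upward triangles have the treated RNA in Cy3 and downward triangles in Cy5. The Cy5 array is the lower one in 12 of 12 samples for each ambp pair, and in 10 of 12 for antiprot1.

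I3C and DIM were compared at matched doses, DIM being the dimer formed from I3C. The vehicle pool cancels in these differences, but the samples are the ones that helped to choose the genes. At 500 ppm, with the turned arrays, the samples fed I3C lay above those fed DIM for both genes, without overlap. The difference was 0.85 ± 0.24 for antiprot1 (95% interval 0.35 to 1.36, adjusted p = 0.0792) and 0.50 ± 0.22 for the first ambp pair (0.04 to 0.97, adjusted p = 0.429). It was 0.54 ± 0.22 for the second (0.07 to 1.0, adjusted p = 0.35). limma called 0 of the 3 pairs, where 2.82% of all features were called.

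The antiprot1 difference at 500 ppm was called by limma in 3 of 15 alternatives. These were arrays scaled alike (1.16, adjusted p = 0.0292), array weights (0.0246) and the 2 diets fitted alone (0.0448). Of all features 180, 198 and 126 were called in those settings, against 123 in the main fit. The antiprot1 difference turned to -0.28 (adjusted p = 0.979) with signs as deposited, and those of ambp to -0.78 and -0.79. Uncentred, it was 0.42, and those of ambp were 0.07 and 0.10. Without replicate 1 of DIM at 500 ppm, those of ambp were 0.32 and 0.30, and without replicate 2 of I3C at 500 ppm that of the first pair was 0.33.

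At 1500 ppm the compounds overlapped in both genes. I3C minus DIM was 0.25 ± 0.24 for antiprot1 (95% interval -0.25 to 0.76), and -0.12 ± 0.22 (-0.59 to 0.35) and -0.16 ± 0.22 (-0.62 to 0.31) for the ambp pairs, each with an adjusted p of 0.999. No pair was called, as were 0.0229% of all features. The intervals still hold differences of over 0.5 on the log2 scale, so these data do not show that the compounds act alike on either gene.

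**Figure D3:**
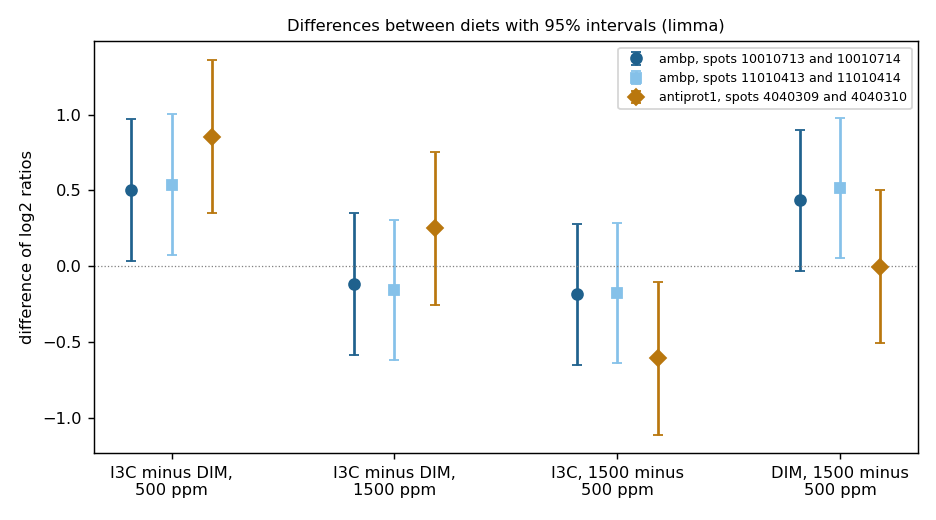
Difference of log2 ratios between diets, with 95% intervals from limma, for both ambp pairs and antiprot1. The antiprot1 interval for I3C minus DIM at 500 ppm runs from 0.35 to 1.36, and no difference shown passed the adjusted threshold.

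Dose was compared within each indole. Between 500 and 1500 ppm of I3C antiprot1 differed by -0.61 ± 0.24 (95% interval -1.11 to -0.10, adjusted p = 0.348), with no overlap of samples, while the ambp pairs differed by -0.19 ± 0.22 (-0.65 to 0.28) and -0.18 ± 0.22 (-0.64 to 0.29), with overlap. The antiprot1 difference was -0.26 uncentred and -0.37 without replicate 2 of I3C at 1500 ppm. limma called 0 of the 3 pairs, where 1.08% of features were called. Between 500 and 1500 ppm of DIM antiprot1 differed by 0.00 ± 0.24 (-0.51 to 0.50). For the ambp pairs the difference was 0.43 ± 0.22 (-0.03 to 0.90) and 0.52 ± 0.22 (0.05 to 0.98), without overlap of samples, and 0.26 and 0.28 without replicate 1 of DIM at 500 ppm.

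For the dose of DIM, limma called no feature (0.0%, with 54 at an unadjusted p under 0.05), and the adjusted p of each pair was 1.0. With signs as deposited the ambp differences turned to -0.85 and -0.82, and that of antiprot1 became -1.14. The antiprot1 values without 1 sample ran from -0.12 to 0.12. The dose step of I3C minus that of DIM, a comparison added after the values were seen, was -0.60 ± 0.33 for antiprot1 (95% interval -1.32 to 0.11). For the ambp pairs it was -0.62 ± 0.31 (-1.28 to 0.04) and -0.69 ± 0.31 (-1.35 to -0.04). The interval of the second ambp pair left out 0, but the limma adjusted p was 0.998 for each of the 3 pairs. A difference between the compounds in their dose step was therefore not shown for either gene.

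Across the 12 samples ambp, as the mean of its pairs, and antiprot1 correlated at Pearson r = 0.80 and Spearman rho = 0.70, given as a description because all samples share the pool. As deposited, r was 0.91, and over the 10 samples without the turned ones it was 0.75. Signs as deposited turn both genes together in the same 2 samples, so that r of 0.91 is no check of their likeness. They lay within 0.11 of each other in both samples of E2 and of I3C at 1500 ppm. By diet they parted most in I3C at 500 ppm and in DIM at 1500 ppm. ambp minus antiprot1 was -0.53 and -0.31 in the first and 0.38 and 0.40 in the second. In BNF it was 0.34 in replicate 1, where adjacent spots agreed least, and -0.05 in replicate 2. In I3C at 500 ppm ambp shared the range of the higher dose and antiprot1 did not.

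**Figure D4:**
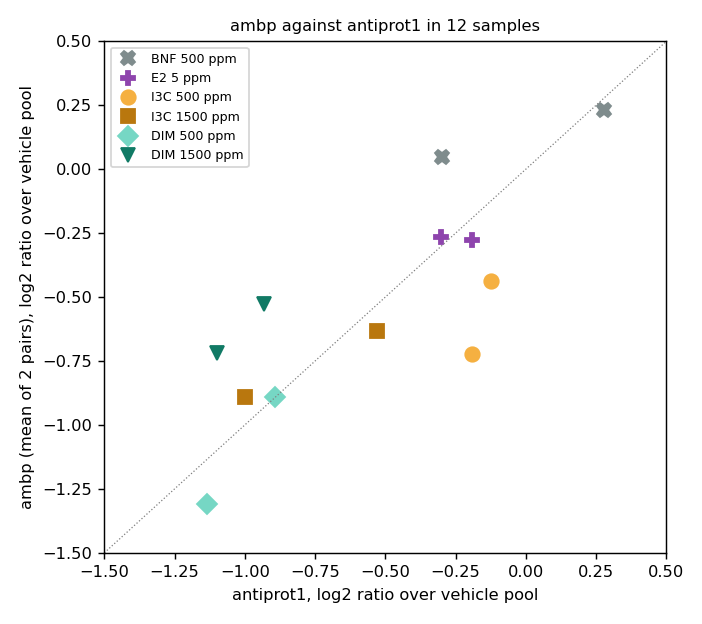
Log2 ratio of ambp (mean of its 2 pairs, y axis) against antiprot1 (x axis) in 12 samples, 2 per diet, with the dotted line where they are equal. Samples of I3C at 500 ppm lie 0.53 and 0.31 below the line and samples of DIM at 1500 ppm 0.38 and 0.40 above it.

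No other plasma protein could be set beside the pair. Of 23 symbols on a list of plasma protease inhibitors, only ambp and antiprot1 were named on the array, and of 42 symbols on a list of other plasma proteins of the liver, 0 were. Of 17 hepatocyte markers ambp alone was named, so the label liver could not be checked against independent markers. Fewer hepatocytes in a sample and less RNA of a gene per hepatocyte cannot be told apart in such tissue.

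Among the 46 named features that were not members, likeness was taken as the Pearson correlation over the 12 samples, which share the pool and the arrays. The features most like ambp were col1a2, a chain of type I collagen that the gene table names LOC100135811 (r = 0.78), LOC100135826, a feature with CA2, a carbonic anhydrase symbol, among its synonyms (0.75), and sod1, a superoxide dismutase, on spots 4020201 and 4020202 (0.72). Those most like antiprot1 were the same sod1 feature (0.87), col1a2 (0.81) and LOC100135948 (0.73). With the 2 turned samples left out, r with ambp was 0.70 for col1a2, 0.88 for LOC100135826 and 0.57 for sod1, and with signs as deposited it was 0.89, 0.90 and 0.89. For antiprot1, r with sod1, col1a2 and LOC100135948 was 0.84, 0.77 and 0.86 without those samples, and 0.92, 0.85 and 0.84 as deposited. Least like both was LOC100136761 on spots 6030209 and 6030210, at r = -0.71 with ambp and -0.78 with antiprot1. As deposited, its r was -0.88 and -0.89. For these features as well, r as deposited is no check of likeness, because both profiles turn together in the same samples. After turning, its means were 1.58 in E2, 1.61 in I3C at 1500 ppm, 1.85 in DIM at 500 ppm and 1.95 in DIM at 1500 ppm. It stood at 0.79 in I3C at 500 ppm and at 0.01 in BNF. Outside BNF these were in the opposite direction to the members. The sizes did not mirror each other, as the members were only at -0.29 to -0.25 in E2.

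With the 4 arrays turned, col1a2 and the members differed in E2 and BNF, and in part in I3C at 500 ppm and DIM at 1500 ppm. In I3C at 500 ppm col1a2 was at -0.70, with antiprot1 at -0.16 and the ambp pairs at -0.61 and -0.55. In DIM at 1500 ppm it was at -1.03, with the ambp pairs at -0.67 and -0.58 and antiprot1 at -1.02. col1a2 stood at -0.86 in E2 and -0.47 in BNF, where ambp and antiprot1 were between -0.29 and 0.17, while in DIM at 500 ppm it was at -1.06, next to -1.11, -1.09 and -1.01. The unnamed feature most like ambp was on spots 7011213 and 7011214 (r = 0.94, and 0.93 as deposited), with 0.65 in BNF and -0.88 in DIM at 500 ppm. That most like antiprot1 was on spots 7010305 and 7010306 (r = 0.96, and 0.98 as deposited). It had larger values of -2.70 and -2.51 in DIM at 500 and 1500 ppm, -2.02 in I3C at 1500 ppm, -0.66 in I3C at 500 ppm and -1.05 in E2. As 76 of 4365 other features lay closer to ambp than antiprot1 did, the 2 inhibitors were not each other's nearest neighbours on this array.

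**Figure D5:**
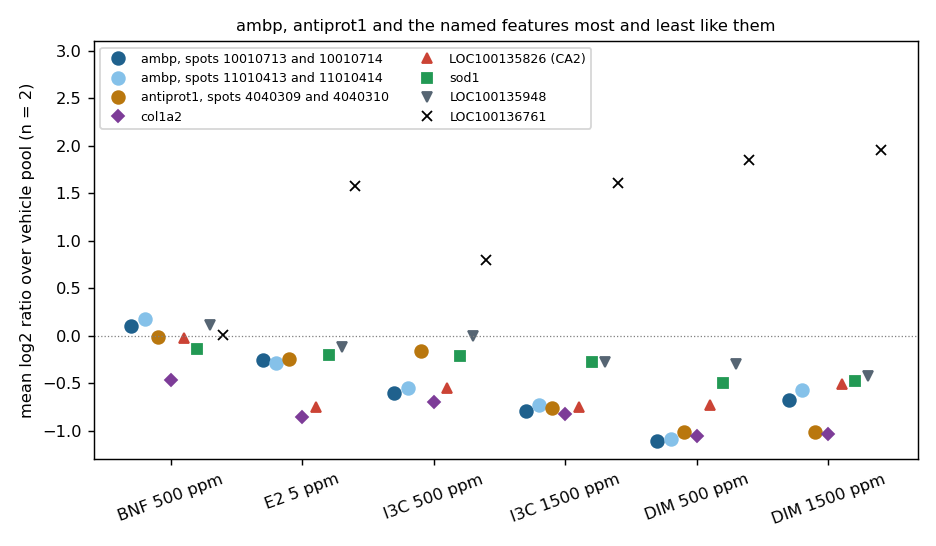
Mean log2 ratio over the vehicle pool (n = 2, likely direction, after turning) in 6 diets for both ambp pairs, antiprot1 and the named features with the highest and lowest correlation to them. LOC100136761 is at 1.58 to 1.95 in E2, I3C at 1500 ppm and both DIM diets, where the members are at -0.25 to -1.11. It is at 0.79 in I3C at 500 ppm and at 0.01 in BNF.

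Markers of other cells in the tissue were read beside these values. Of 12 red cell markers 2 were named. The carbonic anhydrase feature LOC100135826 was at -0.75 in E2, -0.55 and -0.75 in I3C at 500 and 1500 ppm, -0.73 and -0.51 in DIM at 500 and 1500 ppm and -0.02 in BNF, while LOC100136291, listed with the globin synonym hbb4, ran from -0.33 in E2 to 0.16 in BNF and correlated at 0.16 with ambp. Of 6 connective tissue markers 2 were named, col1a2 as above and sparc, a matrix protein with 2 features, which ran from -0.57 to 0.41 and correlated at -0.31 and 0.05 with ambp. No immune, muscle or exocrine pancreas marker of the lists was named. The part that cell makeup had in the values of ambp and antiprot1 was not tested.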

How the data were processed

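Liver RNA of 12 treated trout samples was read on 24 two-colour arrays. Per the labels, the scanner was a ScanArray with QuantArray; background correction, normalisation, log base and numerator are not stated in the labels or files. The authors deposited log ratios, taken as log2, for 23 arrays and a linear ratio for 1, BNF replicate 1 with treated RNA in Cy5, which was logged here. Deposited array medians ran from -0.81 to 1.05. Depth does not apply to arrays, and their number limits the precision.

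Arrays were centred, pairs and swaps averaged, and 4368 features in 12 samples fitted with limma 3.58.1 in R 4.3.3, with 1 mean per diet and a shared spread. A call is an adjusted p under 0.05 over all features. The test against the pool leaves out the pool's own spread. The fit was tested on simulated data. Genes, lists, alternatives and the turning of 4 arrays were chosen with earlier results of these data known. Named genes are every ambp and antiprot1 pair, list members, and per gene the 3 named features most like it, the least like and the most like unnamed one. Of 33 annotated gene IDs, 27 were in the gene table. No coordinates or sequences are given, because the files name no genome build and no sequence table was used here. Alternatives were centring, scaling, print blocks, single spots, signs, omitted samples, a replicate block, all 24 arrays with a dye term and the sample as a random block, separate fits and array weights. The dose-step comparison, and the orders and correlations with signs as deposited or without the turned samples, were added after the data were seen.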

Additional observations from a re-analysis of the deposited data

Results flagged for a closer look

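With the 4 arrays turned, on the second ambp pair (spots 11010413 and 11010414) both BNF samples lay above the vehicle pool, with a mean of 0.17, while both samples of every other diet lay below it, with means of -0.29 in E2, -0.55 and -0.73 in I3C at 500 and 1500 ppm and -1.09 and -0.58 in DIM at 500 and 1500 ppm. The difference between BNF and these diets was not tested. The first pair, a repeat print under the same accession, did not show it for both BNF samples, which stood at -0.02 and 0.23. Uncentred, BNF on the second pair was at -0.18. With signs as deposited, E2 replicate 1 on that pair stood at 0.34 and DIM 500 ppm replicate 1 at 1.33, both above BNF.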

How the results depend on the processing

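Against the pool, 209 of 234 recomputed values of the 3 pairs moved by no more than 1 pooled SD between samples of a diet (0.19 and 0.18 for the ambp pairs, 0.23 for antiprot1), which says nothing of their calls. Some of these values could not move. With 2 samples in each diet, a replicate block, the fit of all 24 arrays, the diet alone and array weights left every mean unchanged. Signs as deposited and omission of the turned samples could change only the means of E2 and DIM at 500 ppm. Calls against the pool were lost or gained in many of the alternatives. In DIM at 1500 ppm the second ambp pair lost its call in 8 of 13 alternatives: uncentred, scaled, print blocks centred, signs as deposited, the diet alone, array weights and without either replicate. The first pair lost it in 5, uncentred, signs as deposited, the diet alone, array weights and without replicate 1. In I3C at 1500 ppm all 3 pairs lost it without replicate 2 and with signs as deposited, and antiprot1 and the second ambp pair also with scaled arrays. In I3C at 500 ppm both ambp pairs gained it uncentred and with the diet alone, the first also with 24 arrays. In the order ambp first pair, ambp second pair, antiprot1, uncentred values were -0.25, -0.18 and -0.36 in BNF, -0.62, -0.66 and -0.61 in E2, and -1.08, -1.02 and -0.63 in I3C at 500 ppm. Signs as deposited gave 0.18, 0.24 and 0.12 in DIM at 500 ppm and, for ambp in E2, -0.043 and 0.053. With arrays scaled alike, ambp in I3C at 500 ppm was at -0.39 and -0.34 and its second pair in DIM at 500 ppm at -1.28. With print blocks centred, the second pair in I3C at 500 ppm was at -0.88 and called. Omitting both turned samples put the second pair in DIM at 500 ppm at -0.85. Leaving out 1 sample gave -0.30 to 0.28 for antiprot1 in BNF, -1.0 to -0.53 for antiprot1 in I3C at 1500 ppm and -1.33 to -0.85 for the second ambp pair in DIM at 500 ppm.

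Between diets, 162 of 180 recomputed differences kept their sign and their side of the threshold. A replicate block, the 24 arrays, array weights and the diets fitted alone could change the calls but not the differences. Signs as deposited and omission of the turned samples touched only the differences with DIM at 500 ppm. I3C minus DIM at 500 ppm for antiprot1 was 1.16 with scaled arrays, and 0.85 with array weights and with the 2 diets alone, each then called. With signs as deposited it was -0.28, against -0.78 and -0.79 for ambp, while DIM 1500 minus 500 ppm was -0.85 and -0.82 for ambp. The difference of dose steps then became 0.67, 0.64 and 0.53. Uncentred, I3C 1500 minus 500 ppm was 0.16 and 0.17 for ambp, and 0.10 for its second pair with print blocks centred. Near 0, I3C minus DIM at 1500 ppm for the first ambp pair was 0.0099 with scaled arrays and -0.24 to 0.0045 without 1 sample. DIM 1500 minus 500 ppm for antiprot1 was 0.019 uncentred, 0.24 with scaled arrays, 0.084 on the first spot alone and -0.12 to 0.12 without 1 sample. The cause was not tested.

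The number of features called over all alternatives ran from 2 to 41 in BNF (2 in the main fit), 0 to 441 in E2 (261), 0 to 818 in I3C at 500 ppm (33), 4 to 560 in I3C at 1500 ppm (396), 0 to 860 in DIM at 500 ppm (464) and 0 to 507 in DIM at 1500 ppm (431). For I3C minus DIM it ran from 0 to 198 at 500 ppm (123) and 0 to 3 at 1500 ppm (1), and for dose from 0 to 145 in I3C (47) and 0 to 3 in DIM (0). Same-numbered samples deviated together, with r over 0.1, in 6 of 15 pairs of diets, so the numbers were not taken as pairs. A replicate block cannot change a difference between diets here, because each diet has both replicate numbers. With the block, the limma adjusted p of I3C minus DIM at 500 ppm for antiprot1 was 0.095, and no call of the 3 pairs changed.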
